A study of Bos taurus with 30 samples.

Results

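The genes described here make, degrade or sense prostaglandins, and were chosen by name from a list of 10 symbols. Of these, 8 carried a probe with that symbol in the platform annotation, out of 8073 genes named on the array: HPGD, PTGDS, PTGS1, PTGS2, PTGES, PTGES3, PTGIS and PTGFR. PTGES2 and SLCO2A1 were not among the annotated symbols and were not analysed here. PTGS2 had 2 probes and the others 1 each. All 8 passed the filter on missing values and were tested. By gene ID, HPGD is 512259, PTGDS 286858, PTGS1 282022, PTGS2 282023, PTGES 282019, PTGES3 493638, PTGIS 282021 and PTGFR 282020, and each ID carries the same symbol in the bovine RefSeq table of assembly ARS-UCD2.0.

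RNA came from the endometrium, the uterine lining, of 15 pregnant cows, and 2 kinds of tissue were compared within each animal. The caruncle is the gland-free site where the ruminant placenta attaches, and the intercaruncular endometrium between these sites carries the uterine glands. Pregnancies were established by artificial insemination (AI, 5 animals), by transfer of an embryo fertilised in vitro (IVF-ET, 5 animals) or by somatic cell nuclear transfer, the cloning method (SCNT, 5 animals). The labels used here give no stage of pregnancy, breed or age. Each animal was hybridised on 2 arrays with Cy3 and Cy5, and a value compares the channels of an array as a log ratio, read here as the ratio of the 2 tissues. No level of a gene in either tissue is known, so the tissue markers could not be checked by level.

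Prostaglandins are made from arachidonic acid, which phospholipases release from membranes. The cyclooxygenases PTGS1 and PTGS2 convert it to the intermediate PGH2, and terminal synthases turn that into the single prostaglandins. HPGD, 15-hydroxyprostaglandin dehydrogenase, starts their inactivation. In the ruminant uterus, endometrial PGF2α triggers regression of the corpus luteum, and the conceptus alters this release early in pregnancy.

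Values are on the log2 scale and are described only by sign, as positive side or negative side of the ratio as deposited. The labels do not name the log base; it was taken as 2, and each fold rests on that reading. Which tissue stands on which side is not settled, for 3 reasons. The labels do not state the order of the ratio, nor whether it is by tissue or by dye. Read as dye ratios, HPGD in SCNT animals was at 0.14 (adjusted p = 0.901) and PTGDS at -0.18, without a call, and 361 probes passed in AI animals, so each tissue ratio below rests on the reading by tissue. The arrays did not all run alike: 3 of 10 AI, 7 of 10 IVF-ET and 10 of 10 SCNT arrays correlated above 0, over all probes, with the mean profile of the SCNT animals (the array's own animal left out), and single AI arrays lay between r = -0.564 and 0.467. IVF-ET replicate 3 was labelled with 1 dye orientation on both arrays, which opposed each other (r = -0.311 and 0.443 with the SCNT profile), and was left out of the tests. Arrays of each group have adjacent numbers, so a shift over the run of arrays cannot be told apart from a difference between pregnancies. AI values are given as deposited, and turning the sign of that group exchanges the side of each. The differences of HPGD, PTGDS and PTGIS from AI animals are also given with that sign turned.

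HPGD was the member with the largest ratio that passed a test, and the only one called on the positive side. It lay on the positive side on 10 of 10 SCNT arrays. The values on the 2 arrays were 0.98 and 0.94 in SCNT replicate 1, 1.65 and 1.59 in replicate 2, 1.48 and 2.15 in replicate 3, 1.08 and 2.37 in replicate 4, and 2.18 and 1.72 in replicate 5. No SCNT array came near 0, and the animal means ran from 0.96 to 1.95. Their mean was 1.61 ± 0.38 (SD, n = 5), a 3.06-fold ratio between the tissues. In limma this was 1.61 ± 0.29 (SE), with an adjusted p of 0.0122 and a 95% interval of 1.00 to 2.23. Of 13818 probes tested, 253 passed in SCNT animals (1.83%), 107 of them on the positive side (0.774%). Of probes with a value on every SCNT array, 1.32% lay on the positive side on all 10 and 1.41% on the negative. HPGD ranked 52 by p in this comparison. The count of 253 was 2, 95, 108 and 167 without SCNT replicates 1, 2, 3 and 4. Leaving out SCNT replicate 1, the lowest animal, raised the mean to 1.78 but took the adjusted p to 0.0504.

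**Figure D1:**
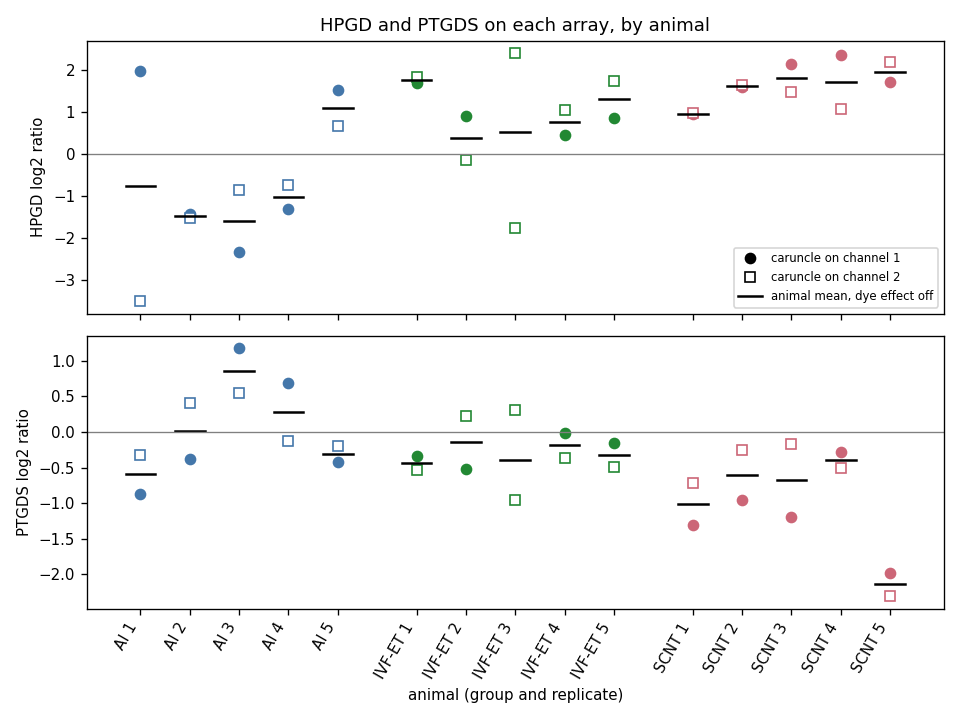
Log2 ratio of HPGD (top) and PTGDS (bottom) on each of 30 arrays, by animal, with filled circles for arrays with the caruncle on channel 1 and open squares for channel 2; bars are the animal means with the dye effect taken off. HPGD lay above 0 on 10 of 10 SCNT arrays and below 0 on 7 of 10 AI arrays. Its values lay on both sides in AI replicate 1, IVF-ET replicate 2 and IVF-ET replicate 3. Those of PTGDS did so in AI replicates 2 and 4 and in IVF-ET replicates 2 and 3.

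In IVF-ET animals HPGD lay on the same side with a wider spread. The array values were 1.83 and 1.69 in IVF-ET replicate 1, -0.14 and 0.90 in replicate 2, 1.05 and 0.45 in replicate 4, and 1.75 and 0.86 in replicate 5. Only 1 of these 8 arrays was below 0, and it was the one closest to 0. The mean was 1.05 ± 0.61 (SD, n = 4) and all 4 animals were positive, but the limma adjusted p was 0.355. No probe passed in IVF-ET animals (0 of 13818, 0%, with limma), while 1099 had an unadjusted p under 0.05. The animal left out, replicate 3, gave -1.75 and 2.41. Over the SCNT and IVF-ET animals together, as the average of the group means, HPGD was at 1.33 ± 0.22 (SE), with 9 of 9 animals positive (adjusted p = 0.00432). In that comparison 466 probes passed (3.37%), and HPGD ranked 51 by p. The count of probes was lowest without IVF-ET replicate 1 (153) and highest without SCNT replicate 5 (743), and lay between 263 and 294 without SCNT replicate 1 or 2, and without replicate 2 or 5 of the IVF-ET group. The adjusted p of HPGD lay between 0.000379 and 0.0286 over the fits that leave out 1 animal. The call was lost when IVF-ET replicate 3 was added with its second array turned (1.02, adjusted p = 0.244) and when values were read as dye ratios (0.033, adjusted p = 0.954).

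AI animals were mostly on the other side. HPGD was at -1.42 and -1.53 in AI replicate 2, at -0.86 and -2.33 in replicate 3, at -1.30 and -0.73 in replicate 4, and at 1.53 and 0.66 in replicate 5. The arrays of replicate 1 held the most distant pair, at 1.98 and -3.50, so the mean of that animal (-0.76) is a mean of opposed values. The group mean was -0.75 ± 1.09 (SD, n = 5), with 4 of 5 animals negative and an adjusted p of 1. No probe passed in AI animals (0 of 13818, 0%, with limma), where 605 had an unadjusted p under 0.05. The mean was -1.21 without AI replicate 5. The side of the AI group is exchanged when its sign is turned.

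Set beside each other regardless of side, the sizes overlapped. The animal means of HPGD ran from 0.76 to 1.60 in AI, from 0.38 to 1.76 in IVF-ET and from 0.96 to 1.95 in SCNT animals. As deposited, the difference of SCNT minus AI was 2.36 ± 0.41 (SE, adjusted p = 0.0162, limma), where 131 probes passed (0.948%). That count was 5 and 7 without AI replicate 3 or 4, 39 without AI replicate 2, and 269 and 234 without AI replicate 1 or 5. It was 39 to 75 without any 1 of SCNT replicates 1 to 4 or IVF-ET replicates 2, 4 and 5, and 241 without SCNT replicate 5. With the AI sign turned it was 0.86 (adjusted p = 0.765), and no probe passed (0 of 13818, 0%, against 898 at an unadjusted p under 0.05). The difference as deposited also missed the threshold without AI replicate 2, 3 or 4 (adjusted p = 0.0504, 0.0623 and 0.0664). IVF-ET minus AI was 1.80 ± 0.44 (adjusted p = 0.22), with 8 probes called (0.0579%; 22 to 37 without AI replicate 1 or 5 or SCNT replicate 5, and 0 or 1 without any other animal), and 0.30 with the AI sign turned (adjusted p = 0.999), where again none was called (0%, against 519 at an unadjusted p under 0.05). Without AI replicate 5, the AI animal on the positive side, IVF-ET minus AI was 2.26 (adjusted p = 0.00675). SCNT minus IVF-ET was 0.56 with a 95% interval of -0.36 to 1.49 (adjusted p = 0.915; 0.34 without IVF-ET replicate 2), and 0 of 13818 probes passed with limma (0%, against 610 at an unadjusted p under 0.05).

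Where the sign of whole arrays is in doubt, the side of HPGD can be set against that of the rest of the array, since turning an array turns both. HPGD lay on the side given by the array's correlation with the SCNT profile on 29 of 30 arrays: 10 of 10 AI, 9 of 10 IVF-ET and 10 of 10 SCNT arrays. The exception was an array of IVF-ET replicate 4, with a correlation of -0.071 and HPGD at 0.45. Without AI replicate 1 and IVF-ET replicate 3 the count was 25 of 26 arrays. The share of all probes that reach such a count is not given here, so it does not mark HPGD out. All SCNT arrays correlated above 0 and had HPGD positive, so the 10 of 10 in SCNT only restates those 2 counts. The 2 arrays of an animal placed HPGD on the same side in 12 of 14 animals with both dye orientations. Over all probes with a value on these arrays the median was 7 of 14, and 1.8% reached 12. The second PTGS2 probe also reached 12, PTGDS 11 and the first PTGS2 probe 10. Duplicate spots of HPGD differed by a median of 0.12 on an array, close to the 0.14 of all probes. The largest gap was 0.84, on the SCNT replicate 4 array with the caruncle on channel 2. Its spots were at 0.65 and 1.49 before centring.

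**Figure D2:**
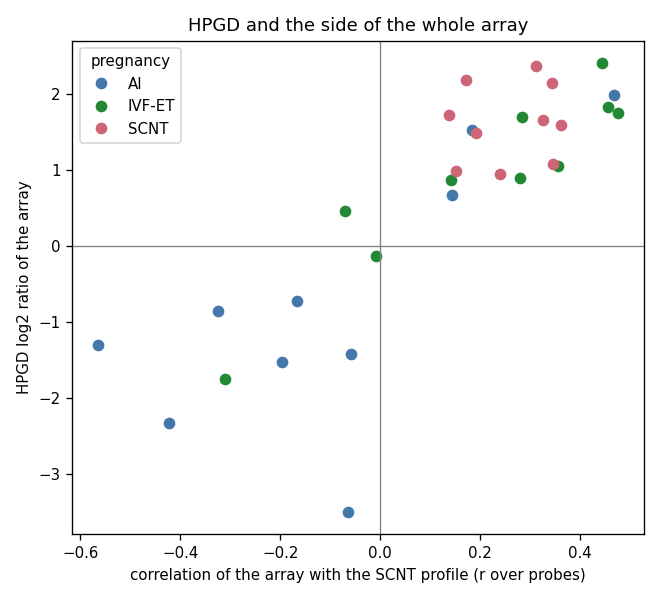
Log2 ratio of HPGD on each of 30 arrays against the correlation of that array with the mean SCNT profile over all probes, the array's own animal left out. On 29 of 30 arrays both values have the same sign; the AI arrays spread over both sides, with 7 of 10 in the lower left.

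PTGDS, the lipocalin-type synthase that makes prostaglandin D2, was the member called on the negative side. On the SCNT arrays it was at -0.72 and -1.31 in replicate 1, -0.25 and -0.96 in replicate 2, -0.17 and -1.19 in replicate 3, -0.51 and -0.28 in replicate 4, and -2.31 and -1.98 in replicate 5. It was negative on 10 of 10 arrays, and replicate 5 stood lowest on both of its arrays. The mean was -0.97 ± 0.69 (SD, n = 5), a 1.95-fold ratio, and -0.97 ± 0.21 (SE) in limma with an adjusted p of 0.0276. On the negative side 146 probes passed (1.06%). Without SCNT replicate 5, whose arrays had the widest spread over probes (SD 0.816 and 0.723), the mean was -0.67 (adjusted p = 0.0456). The call was lost without SCNT replicate 1, 2 or 3 (adjusted p = 0.107, 0.0542 and 0.0592).

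The same side held for PTGDS in IVF-ET animals, at a smaller size. The values were -0.53 and -0.34 in IVF-ET replicate 1, 0.23 and -0.52 in replicate 2, -0.36 and -0.0079 in replicate 4, and -0.50 and -0.16 in replicate 5. The mean was -0.27 ± 0.13 (SD, n = 4), negative in 4 of 4 animals (adjusted p = 0.887). AI animals lay on both sides, with means from -0.59 in replicate 1 to 0.86 in replicate 3 and a group mean of 0.05 ± 0.56 (SD, n = 5, adjusted p = 1). With the AI sign turned that mean was -0.05. The 4 IVF-ET means, from -0.44 to -0.14, overlapped the SCNT range of -2.14 to -0.40. Their difference, SCNT minus IVF-ET, was -0.69 with a 95% interval of -1.36 to -0.025 (adjusted p = 0.915), and -0.40 without SCNT replicate 5. SCNT minus AI was -1.02 (adjusted p = 0.127), and -0.92 with the AI sign turned (adjusted p = 0.763). IVF-ET minus AI was -0.32 (adjusted p = 0.863; -0.12 without AI replicate 3), and -0.22 with the AI sign turned (adjusted p = 0.999). Over SCNT and IVF-ET animals together, PTGDS was at -0.62 ± 0.16 (SE, adjusted p = 0.0404), negative in 9 of 9. That call was lost in 9 of the 14 fits that leave out 1 animal, with adjusted p up to 0.141 (without IVF-ET replicate 1). It was lost without each of the 4 IVF-ET animals, without SCNT replicate 1, 2 or 3, and without AI replicate 2 or 4.

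HPGD and PTGDS stood on opposite sides on 27 of 30 arrays, a count that does not depend on how an array was turned. It was 10 of 10 in SCNT, 10 of 10 in IVF-ET, where both arrays of replicate 3 are included, and 7 of 10 in AI. In replicate 3 of IVF-ET the array with HPGD at -1.75 had PTGDS at 0.30, and the array with HPGD at 2.41 had PTGDS at -0.95. The 3 AI arrays with both genes negative were 1 each of replicates 1, 2 and 4. Without AI replicate 1 and IVF-ET replicate 3 the count was 24 of 26, and with the dye effect taken off it was 25 of 30. Among 13061 probes with a value on all arrays, 0.559% were opposite to HPGD on at least as many arrays.

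**Figure D3:**
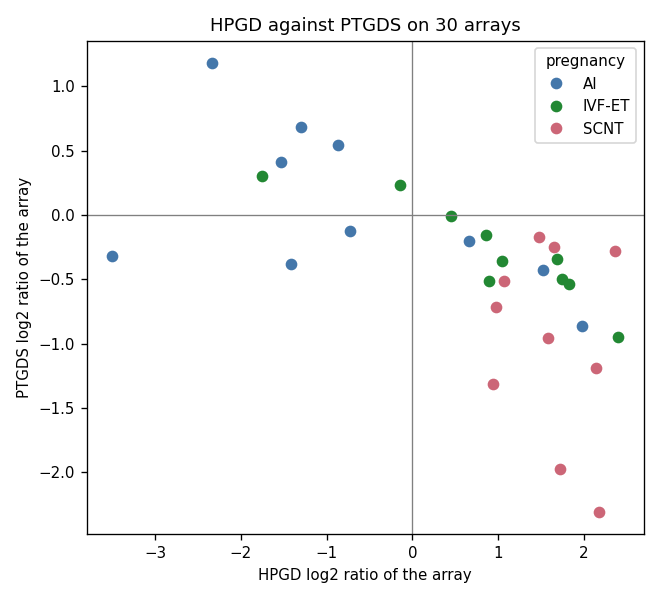
Log2 ratio of PTGDS against HPGD on each of 30 arrays, coloured by pregnancy. The 10 SCNT arrays lie in the lower right quadrant, and 27 of 30 arrays lie in the lower right or upper left; turning the sign of an array moves it between these 2 quadrants.

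The cyclooxygenases had no call. PTGS2, the inducible cyclooxygenase, was at -0.02 ± 0.14 (SD, n = 5) in SCNT, 0.04 ± 0.22 (n = 4) in IVF-ET and -0.09 ± 0.16 (n = 5) in AI animals, by its first probe. The array values ran from -0.30 to 0.31 in SCNT, from -0.29 to 0.59 in IVF-ET and from -0.55 to 0.15 in AI, so the groups overlapped. By this probe the limma 95% interval of the SCNT mean was -0.20 to 0.17, with an adjusted p of 0.952. That interval is for the group mean and does not bound single animals or arrays. The second PTGS2 probe spread more widely, with animal means from -0.68 to 0.13 in SCNT, -0.48 to 0.45 in IVF-ET and -0.74 to 0.52 in AI. Its SCNT mean was -0.32 ± 0.32 (SD, n = 5, adjusted p = 0.405). Both PTGS2 probes stood on the same side on 21 of 30 arrays, with a cosine of 0.0914 between their values (the uncentred correlation, where 1 is a full match), so they do not give one pattern.

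PTGS1, the constitutive cyclooxygenase, was at -0.17 ± 0.43 (SD, n = 5) in SCNT animals, 0.06 ± 0.19 (n = 4) in IVF-ET and -0.16 ± 0.21 (n = 5) in AI. In SCNT animals, replicate 5 was at -0.88 and the other 4 between -0.25 and 0.17. Both arrays of replicate 5 were low, at -0.80 and -0.96, and PTGDS was lowest in the same animal. Without it the PTGS1 mean of SCNT animals was 0.0047. No group passed, with adjusted p of 0.592, 0.986 and 1.

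Terminal synthases other than PTGDS had no call. PTGES, the inducible microsomal prostaglandin E synthase, had a value on only 18 of 30 arrays and in 12 of 14 animals of the fit, and its blanks fell in all groups. In SCNT replicate 5 its single array with a value was at -5.47, with its spots at -5.51 and -5.41 before centring, while the other SCNT animals ranged from -0.22 to 0.29. In AI replicate 5 it was at -2.13 on 1 array, against animal means of 0.49 to 0.93 in the other AI animals. The fitted SCNT mean of -1.30 ± 0.69 (SE, adjusted p = 0.416) rested on replicate 5, and was 0.011 without it. The IVF-ET animals lay between -0.45 and 0.44.

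PTGES3, a cochaperone also known as cytosolic prostaglandin E synthase, was at 0.02 ± 0.26 (SD, n = 5) in SCNT, -0.17 ± 0.19 (n = 4) in IVF-ET and 0.04 ± 0.33 (n = 5) in AI animals. PTGIS, the prostacyclin synthase, was negative in 5 of 5 SCNT animals, from -0.30 to -0.034, with a mean of -0.15 ± 0.11 (SD, n = 5, adjusted p = 0.516). It was at -0.09 ± 0.26 (n = 4) in IVF-ET animals and at 0.21 ± 0.24 (n = 5) in AI animals, where 4 of 5 were positive. SCNT minus AI for PTGIS was -0.36 ± 0.14 (SE, adjusted p = 0.244), and 0.06 with the AI sign turned (adjusted p = 0.946). PTGIS lay opposite to HPGD on 19 of 30 arrays, a count that 17.9% of probes reached. By animal it lay opposite in 12 of 15, beside 14 of 15 for PTGDS. Its cosine with HPGD over the 14 animals of the fit was -0.634, beside -0.744 for PTGDS. The share of all probes with such animal values is not given here. Neither PTGES3 nor PTGIS had a call in any group.

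PTGFR, the receptor of PGF2α, also gave ratios near 0. Its animal means ran from -0.09 to 0.24 in SCNT, from -0.042 to 0.36 in IVF-ET and from -0.09 to 0.17 in AI animals. The group means were 0.07 ± 0.14 (SD, n = 5), 0.14 ± 0.18 (n = 4) and -0.0021 ± 0.10 (n = 5), with adjusted p of 0.766, 0.758 and 1. The 2 arrays of an animal agreed on the side of PTGFR in 5 of 14 animals.

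**Figure D4:**
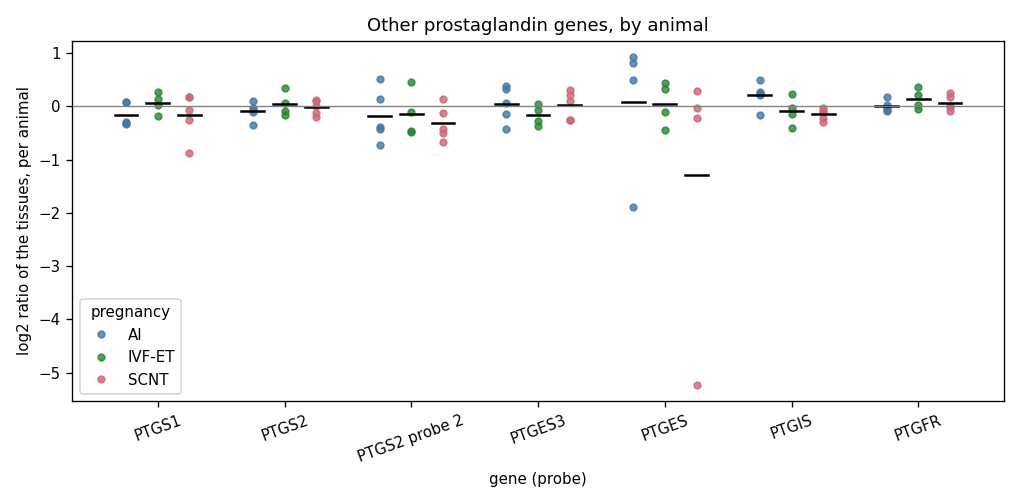
Log2 ratio of the other members in each animal of the fit, by group, with the group mean as a bar. Values lie within 1 of 0 except for PTGES, where AI replicate 5 (-1.88) and SCNT replicate 5 (-5.22) stand apart.

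In all, 2 of 8 members passed in SCNT animals, 1 on each side, against 1.83% of all probes, and the same 2 passed over SCNT and IVF-ET animals together, against 3.37%. The members were chosen with earlier results of these data known, so these shares are descriptive and give no test of enrichment. HPGD alone passed in SCNT minus AI as deposited. The median of the 8 members was -0.084 in SCNT animals, beside -0.00048 for all probes tested. Of the 8 members, 3 had a positive mean in SCNT animals, so the members did not share a side.

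Of a wider list of 45 genes of prostaglandin and related lipid signalling, 23 were measured and none passed in any single group (0 of 23). Of all probes 1.83% passed in SCNT animals and 0% in IVF-ET and AI animals. With so few genes, the count does not set the list apart from all probes. The list holds phospholipases, receptors, reductases, lipoxygenases and the oxytocin system. Its median was -0.024 in SCNT, 0.0022 in IVF-ET and -0.010 in AI animals, near that of all probes. Over SCNT and IVF-ET animals together 1 of 23 passed, where 3.37% of all probes did: PTGFRN, a membrane protein that associates with the PGF2α receptor, at -0.36 ± 0.09 (SE, adjusted p = 0.031). PTGFRN was negative in 4 of 4 IVF-ET and 4 of 5 SCNT animals and positive in 5 of 5 AI animals. ANXA1, named after its values were seen, is annexin A1, a phospholipid-binding protein that limits arachidonate release. It was at -0.76 ± 0.20 (SE) in SCNT animals, negative in 5 of 5, with an adjusted p of 0.0591. The PGE2 and oxytocin receptors are likewise given for their role and not for a call. PTGER2, PTGER3 and PTGER4, receptors of PGE2, lay between -0.13 and 0.08 in the 3 groups. OXTR, the oxytocin receptor whose activation drives luteolytic PGF2α pulses, was at -0.0027 in SCNT, 0.34 in IVF-ET and 0.40 in AI animals, with adjusted p of 0.998, 0.764 and 1.

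**Figure D5:**
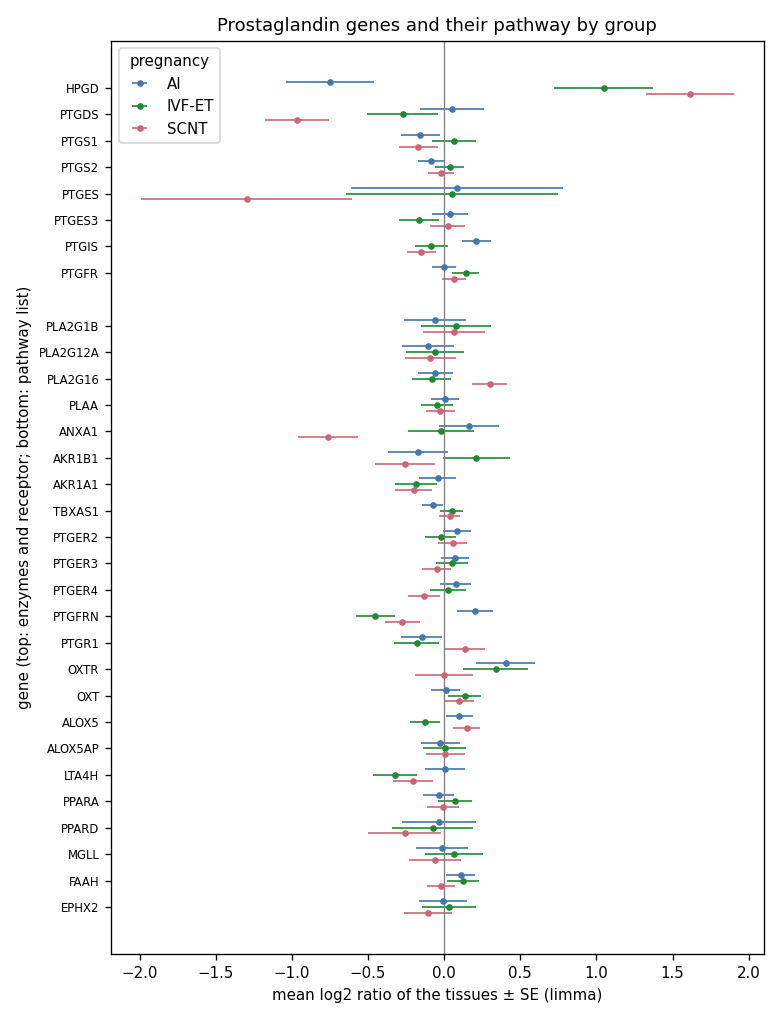
Mean log2 ratio of the tissues with the SE from limma for the 8 members (top) and the 23 measured genes of the pathway list (bottom), by pregnancy. HPGD is the gene farthest on the positive side in SCNT (1.61) and IVF-ET (1.05) animals, PTGES has the widest errors, and most other genes lie close to 0.

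Markers of epithelium and stroma moved with HPGD and PTGDS. The median of 13 epithelial markers was positive in 5 of 5 SCNT animals (0.18 to 0.53), in 4 of 4 IVF-ET animals (0.33 to 0.80) and in 2 of 5 AI animals (-0.56 to 0.23). That of 12 stromal markers was negative in 5 of 5 SCNT animals (-1.14 to -0.31) and 4 of 4 IVF-ET animals (-0.70 to -0.20), and positive in 4 of 5 AI animals (-0.14 to 0.60). HPGD lay on the side of the epithelial median in 13 of 14 animals and on that of the stromal median in 0 of 14. PTGDS lay on the side of the stromal median in 13 of 14 animals and on that of the epithelial median in 0 of 14. The share of all probes with such side counts is not given here, so the counts do not mark HPGD or PTGDS out from other probes. In SCNT animals 2 of the 13 epithelial markers passed on the positive side and 5 of the 12 stromal markers on the negative side, against 0.774% and 1.06% of all probes. The part of these markers in the HPGD and PTGDS ratios was not tested. In tissue RNA, fewer cells of a type and less RNA per cell cannot be told apart. The median of 6 gland markers lay on the side of HPGD in 12 of 14 animals and on that of PTGDS in 1. This gland median was positive in 5 of 5 SCNT animals (0.06 to 0.54) and 3 of 4 IVF-ET animals (-0.15 to 0.71). In AI animals it was positive in 2 of 5 (-0.19 to 0.38). The median of 7 leukocyte markers lay on the side of HPGD in 11 animals and on that of PTGDS in 2, at 0.06 to 0.16 in SCNT animals. That of 7 endothelial markers, at -0.26 to 0.24 in SCNT animals, lay on the side of HPGD in 7 and of PTGDS in 6. That of 4 smooth muscle markers lay on the side of HPGD in 5 animals and of PTGDS in 8, at -0.31 to 0.79 in AI, -0.52 to 0.050 in IVF-ET and -0.21 to 0.18 in SCNT animals. The trophoblast median was -2.39 for SCNT replicate 3, against -0.79 to 0.14 for the remaining SCNT animals, while HPGD in replicate 3 (1.81) lay within the range of the other 4. That median was positive in 2 of 5 SCNT, 0 of 4 IVF-ET and 1 of 5 AI animals. By gene, 0 of 5 trophoblast markers had a positive mean in SCNT, in IVF-ET or in AI animals. Which tissue stands on which side was not tested with the gland and trophoblast markers.

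The genes most like HPGD were taken by the cosine over the 14 animals among 8066 named genes. Turning the finished value of an animal in all genes leaves this measure unchanged. Turning a single array before the dye effect is taken off and the arrays are averaged can change it. The highest were the matricellular growth factor CCN2 (0.947), the tight junction protein OCLN (0.941), OGA (0.935), the enzyme that removes O-GlcNAc, MPPED2 (0.933) and FAM210B (0.930). CCN2 lay on the side of HPGD in 14 of 14 animals and the other 4 in 13. The lowest were CARS2 (-0.945), the collagen chaperone SERPINH1 (-0.925), the collagen chain COL6A3 (-0.925), the retinol-binding protein receptor STRA6 (-0.921) and the actin bundler FSCN1 (-0.919). SERPINH1, COL6A3, STRA6 and FSCN1 lay opposite to HPGD in every one of the 14 animals. Over the 30 single arrays the cosines of these 10 genes were 0.834 to 0.904 and -0.92 to -0.76. The genes were picked by animal values that are means of 28 of these arrays. The shared sign and the side counts of these genes therefore largely follow from that choice and are no separate check.

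For PTGDS the highest were MXRA8 (0.968), the actin regulator TWF2 (0.962), the annexin ANXA6 (0.958), the transcriptional repressor HIC1 (0.957) and the small GTPase RRAS (0.951), and the lowest NUCKS1 (-0.943), ASAP2 (-0.939), AGTPBP1 (-0.931), the phosphatase DUSP6 (-0.931) and TSG101 (-0.930). PTGDS itself had a cosine of -0.744 with HPGD over the animals and of -0.699 over the arrays. For PTGS2 only the first probe was used, with means of -0.02 in SCNT, 0.04 in IVF-ET and -0.09 in AI animals. The second probe did not give the same pattern. By the first, the highest was ZNF34 (0.784), followed by YES1, PKP4, PKP2 and BIN2. The lowest was CYP26C1 (-0.785), followed by C14H8orf34, SSBP1, TYROBP and FNDC5. Over the 30 arrays the cosines with PTGS2 were 0.0941 (ZNF34) to 0.466 (BIN2) for the highest genes and -0.568 (SSBP1) to -0.217 (C14H8orf34) for the lowest. Each was smaller in size than over the animals, so these names do not mark genes that follow PTGS2.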

How the data were processed

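Both tissues of an animal were labelled with Cy3 and Cy5 as aminoallyl cDNA, per the labels' protocols. Each deposited value is a log ratio of an array's channels, read here as log2. Its normalisation, log base and channel order are not given in the sources used here, and scanner intensities were not used here.

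Adjacent duplicate spots (27648, with the same accession in 8750 of 8750 annotated pairs) were averaged into 13824 probes, and the median of each array was subtracted. Between 26744 and 27643 spots per array had a value, and precision is limited by how few animals there were. Single-array values are these centred values. For animal values, the dye effect of each probe was taken off before both arrays were averaged, which makes the animal the replicate. Probes lacking a value in at most 1 animal of each group were tested (13818). limma 3.58.1 in R 4.3.3 fitted 1 mean per group over 14 animals, two-sided, with Benjamini-Hochberg adjustment over all probes in each comparison and a threshold of 0.05. The fit was tested on simulated data.

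The members, the pathway and marker lists and the tests were chosen with earlier results of these data known. Named genes are every member, pathway genes past the threshold, and the 5 genes with the highest and the 5 with the lowest cosine to HPGD, PTGDS and PTGS2. ANXA1, OXTR and the PTGER genes fall outside this rule and were named after their values were seen. Of several probes for a gene, the one with most values was used, then the first in print order, and both PTGS2 probes are given. Alternatives covered the sign of arrays, IVF-ET replicate 3, centring, scale, print order, spots, filters, the variance model, animal weights, each dye orientation and leaving out each animal. Leaving out AI replicate 1 with IVF-ET replicate 3, and taking the dye effect off the array counts, were chosen after seeing the data. Coordinates are left out because no build is named in the files.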

Additional observations from a re-analysis of the deposited data

Results flagged for a closer look

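HPGD differed between SCNT and AI animals as deposited, by 2.36 (SCNT minus AI, limma, adjusted p = 0.0162), with 5 of 5 SCNT animals positive and 4 of 5 AI animals negative. With the AI sign turned the difference was 0.86 (adjusted p = 0.765).

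PTGES in AI replicate 5 (-1.88, next lowest 0.49) and in SCNT replicate 5 (-5.22, next lowest -0.22) lay far from the other animals of their groups, by the gap over the range against Dixon's 95% critical value (0.844 and 0.908 against 0.829 for 4 animals). Each of these values comes from a single array. Such gaps arise by chance in about 1 in 20 groups.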

How the results depend on the processing

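The number of animals and the unsettled sign of arrays limit every result, and signal over background is not known. Values are log2, and the cause of each change was not tested. Over 31 alternatives HPGD in SCNT animals stayed positive and passed in 25, and PTGDS stayed negative and passed in 22. Many of these alternatives could not move an SCNT mean. Those that change only AI or IVF-ET animals, the filter or the variance model left it at 1.61 for HPGD and -0.97 for PTGDS. Such fits check the adjusted p and not the side. The other 6 members' combined mean and differences between groups passed in none of 732 fits (lowest adjusted p = 0.0919).

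Read as dye ratios, HPGD was at 0.14 in SCNT (adjusted p = 0.901), 0.033 in SCNT and IVF-ET together, 0.44 in AI, -0.073 in IVF-ET, -0.30 for SCNT minus AI and -0.52 for IVF-ET minus AI. PTGDS was at -0.18 in SCNT, -0.080 together, -0.012 in AI, 0.018 in IVF-ET and 0.029 for IVF-ET minus AI. Signs also changed there for PTGES (-0.17 IVF-ET, 1.23 SCNT), PTGES3 (-0.21 SCNT), PTGFR (-0.013 IVF-ET), PTGIS (0.14 SCNT), PTGS1 (0.17 AI) and PTGS2 (0.0041 AI). With the AI sign turned, the AI means were 0.75 for HPGD, -0.05 PTGDS, -0.083 PTGES, -0.038 PTGES3, 0.0021 PTGFR, -0.21 PTGIS, 0.16 PTGS1 and 0.086 PTGS2, and SCNT minus AI for HPGD was 0.86.

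When IVF-ET replicate 3 was included with the sign of its second array turned, calls were lost for HPGD in SCNT (1.61, adjusted p = 0.11), together (1.02) and for SCNT minus AI (2.36), and for PTGDS in SCNT (-0.97) and together (-0.53), and PTGIS in IVF-ET was at 0.040. Kept as deposited, PTGS2 in IVF-ET was at -0.056. With trend and robust, calls were lost for HPGD in SCNT (1.61, adjusted p = 0.0806) and SCNT minus AI (2.36) and PTGDS in SCNT (-0.97) and together (-0.62). SCNT animals alone gave PTGDS -0.97 without a call (adjusted p = 0.168).

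On arrays with the caruncle on channel 1 alone, HPGD in SCNT was at 1.75 and SCNT minus AI at 2.06, PTGDS in SCNT at -1.14 and together at -0.70, all without a call, PTGES3 in SCNT at -0.19 and PTGS1 in AI at 0.016. On channel 2 alone HPGD was at 1.47 and 2.67 and PTGDS at -0.79 and -0.54 in the same comparisons, again without a call, with PTGFR in AI at 0.0001, PTGS1 in IVF-ET at -0.10 and PTGS2 in SCNT at 0.062. With animal weights HPGD passed in IVF-ET (1.00, adjusted p = 0.0451) and IVF-ET minus AI (1.73), and PTGES in IVF-ET was at -0.038, PTGES3 in SCNT at -0.093 and PTGIS in IVF-ET at 0.0051. With the print-order trend off, PTGES3 in AI was at -0.0091, PTGFR in AI at 0.019, PTGS2 in IVF-ET at -0.0050 and in SCNT at 0.0040. With the second spot alone, PTGES3 in SCNT was at -0.013, PTGFR in AI at 0.025 and PTGS2 in SCNT at 0.043.

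Leaving out 1 animal gave HPGD in SCNT 1.53 to 1.78, in AI -1.21 to -0.54, SCNT minus IVF-ET 0.34 to 0.80, SCNT minus AI 2.15 to 2.83 and IVF-ET minus AI 1.56 to 2.26, and PTGDS in SCNT -1.11 to -0.67, together -0.69 to -0.47, in AI -0.15 to 0.21, SCNT minus IVF-ET -0.84 to -0.40 and IVF-ET minus AI -0.48 to -0.12. The ranges that crossed 0 were PTGES in AI (-0.20 to 0.74), IVF-ET (-0.077 to 0.22) and SCNT (-1.83 to 0.011), PTGES3 in AI (-0.047 to 0.15) and SCNT (-0.050 to 0.090), PTGFR in AI (-0.045 to 0.020), PTGIS in IVF-ET (-0.19 to 0.021), PTGS1 in IVF-ET (-0.0078 to 0.14) and SCNT (-0.26 to 0.0047), and PTGS2 in IVF-ET (-0.066 to 0.10) and SCNT (-0.055 to 0.027).

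The count of probes called in SCNT animals, 253, was 0 read as dye ratios, with trend and robust or with the second array of IVF-ET replicate 3 turned, 2 and 86 on channel 1 or 2 alone, 74 in SCNT animals alone, 740 with animal weights, and 2 to 325 leaving out 1 animal (2 without SCNT replicate 1, 95 without SCNT replicate 2, 108 without 3, 167 without 4). In IVF-ET (0) it reached 234 with animal weights, in AI (0) 361 read as dye ratios, over SCNT and IVF-ET (466) it ran from 0 to 1297, for SCNT minus AI (131) from 0 to 269, and for IVF-ET minus AI (8) from 0 to 66.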
